A study of Mus musculus with 9 samples.

Results

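The chemokine, interleukin and colony-stimulating factor (CSF) genes of the mouse were examined in RNA from sorted cells of pancreatic ductal adenocarcinoma (PDAC). Members were the protein-coding genes whose symbols name a Cxcl or Ccl chemokine, an interleukin or Csf1, Csf2 or Csf3, together with Cx3cl1, Lif, Tnf, Tslp and Il1rn. Of the 47643 genes in the files, 73 were members. The tested members were the 44 whose counts summed to 100 or more over the 9 libraries, 14 had 1 to 99 counts, and 15 had no count. A further 7 annotated copies of Ccl19, Ccl21 and Ccl27 under other Ensembl identifiers were not analysed here.

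The 6 KPF libraries (4269, 4435, 4504h, 4504s, 4515 and 4601) came from GFP+Yap+ cells and the 3 KPYYF libraries (4449, 4891 and 4938) from Tm+Yap− cells, all of the pancreas. Among other alleles, KPYYF mice carried one frt-flanked Trp53 allele (Trp53 frt/+), both floxed Yap alleles (Yap flox/flox), the Pdx-Flp transgene and the R26 FSF-CreER/Dual alleles. KPF mice carried the same alleles without the floxed Yap. Tamoxifen (TAM), which activates CreER, was given in the diet after tumors could be felt. Pdx-Flp directs recombination to the pancreatic epithelial lineage, where the Dual reporter gives GFP and, after Cre activity, tdTomato (Tm) instead. The GFP+ cells of KPF mice had thus not undergone the Cre-driven switch and the Tm+ cells of KPYYF mice had. The paper states that the sequenced cells came from relapsed nodules of TAM-treated tumors. It describes relapse as Tm+Yap− nodules that arose in some KPYYF mice. Genotype, Yap status, reporter color and relapse cannot be told apart in this comparison. Mouse ages were not given in the labels, and libraries 4504h and 4504s bear the same mouse number.

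Chemokines are small secreted proteins that draw leukocytes along gradients through G protein-coupled receptors. Many interleukins, and Csf2 and Csf3, act on receptors that signal mainly through JAK-STAT proteins, and cytokines of the IL-1 and TNF families act through NF-kB. In PDAC, tumor cells, fibroblasts and infiltrating myeloid cells all make some of these genes, and their products shape which leukocytes enter the tumor.

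Between 8116539 and 9635514 reads per library were counted on genes, and 1 library stood apart from the others in the cytokine genes. The targeted gene Yap1 was at 41.8 to 151 CPM (counts scaled to library size by edgeR's TMM factors) in KPF and 0.712 to 7.12 CPM in KPYYF libraries. As a check of the label PDAC cells, 7 epithelial markers summed to 2885 to 10460 CPM in KPF and 546 to 1582 CPM in KPYYF libraries, while 9 fibroblast markers summed to 323 to 4041 and 1154 to 2869 CPM. Leukocyte transcripts were present in every library, with Ptprc, which encodes CD45, at 50.7 to 400 CPM and the myeloid gene Lyz2 at 236 to 5997 CPM. In KPF library 4601, 10 macrophage markers summed to 10110 CPM and 7 pan-leukocyte markers to 3435 CPM, where no other library had more than 1608 and 472 CPM. Neutrophil markers were highest in KPF libraries 4504s (2088 CPM) and 4601 (1431 CPM) and lay between 50.0 and 153 CPM in KPYYF libraries. T and NK cell markers (9 genes) reached 67.2 CPM and B cell markers (5 genes) 127 CPM in 4601, which no other library matched (4.87 and 32.4 CPM at most), and 6 endothelial markers ranged from 10.8 to 55.9 CPM. Ncr1, an NK cell receptor, had no count in any library. Xist reads numbered 3452 to 16108 in the KPYYF libraries and in 3 KPF libraries (4435, 4504h and 4504s) 5878 to 10933, against at most 159 in the other 3.

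The cytokine genes past the cutoff of the study's methods, an unadjusted p under 0.05 with a change of more than 2-fold, had lower levels in KPYYF than in KPF libraries of Cxcl12, Cxcl17, Il18, Cx3cl1, Ccl17 and Il1a and higher levels of Cxcl10 and Tslp. None of the 44 members had an adjusted p under 0.05 in edgeR's quasi-likelihood test, where 0.305% of the 14105 genes tested were higher and 0.794% lower at that threshold. Limma-voom also called 0, and the DESeq2 Wald test called 4, all lower, namely Cxcl12, Cxcl17, Il18 and Ccl17, where it called 6.75% of the 13748 genes with a DESeq2 p-value lower. DESeq2 gave no p-value for Il1b, Ccl3, Ccl5, Ccl9 and Ccl22. In simulated data, 43.0% of DESeq2's calls at an adjusted p under 0.05 were false, against 7.23% of edgeR's. Of the 8 members past the cutoff of the methods in edgeR's test, 2 were higher (4.55% of the 44, against 4.2% of all genes) and 6 were lower (13.6%, against 9.2%). By DESeq2, the tool of the methods, 9 of the 44 members were lower at this cutoff, the 6 named and Ccl4, Ccl6 and Ccl24. At this cutoff 12.4% of the genes with a DESeq2 p-value were lower. The share of higher members was near that of all genes and the share of lower members was above it, and neither difference was tested. Tslp, nearly absent from KPF libraries, passed the minimum of summed counts through the KPYYF group alone. Ccl17 and Cxcl17, nearly absent from KPYYF libraries, passed it through the KPF group alone. The KPYYF libraries were all above the KPF libraries for 1 member (2.27%, against 3.92% of all genes), and below for 3 (6.82%, against 5.18%). Fewer cells of a type and less RNA per cell cannot be told apart in these bulk libraries.

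Of the 44 members, 33 had a negative log2 fold change (75%, against 53.3% of all genes), and their median was −0.98, against −0.07 over all genes. Without KPF library 4601, 28 of the 41 members with a value were negative (68.3%, against 50.4% of all genes) and the median was −0.35, against −0.0082 over all genes. Library 4601 held the highest value of the 9 libraries for 21 members (47.7%, against 14.2% of all genes). These included 9 of the 11 inflammatory CC chemokines and 4 of the 5 IL-1 family genes. The members' summed level was 14054 CPM in 4601, of which Ccl6, Il1b, Cxcl2 and Il1rn made up 83.0%, against 1223 to 2744 CPM in the other KPF and 1149 to 2001 CPM in the KPYYF libraries. Since the macrophage and pan-leukocyte markers were also highest in 4601, values without this library are given beside the genes it moved most. The part of these cells in the differences was not tested.

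**Figure D1:**
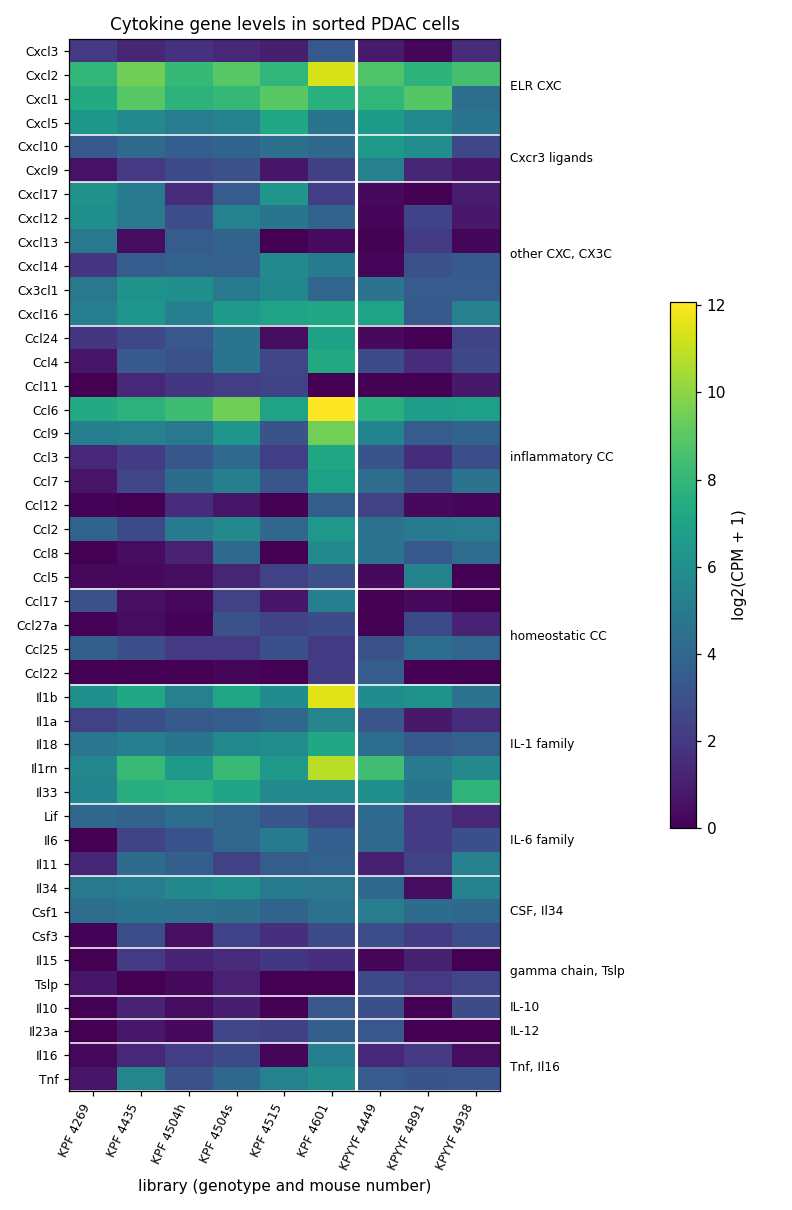
Levels of the 44 cytokine genes with at least 100 counts, as log2(CPM + 1) by color, in the 6 KPF libraries (left of the white line) and the 3 KPYYF libraries (right), with genes grouped by role. KPF 4601 holds the highest value of 21 genes, and Cxcl12 and Cxcl17 are dark in all 3 KPYYF columns.

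The ELR CXC chemokines, which bind Cxcr2 and draw neutrophils, held 2 of the 5 members with the highest mean CPM, and their groups overlapped. Cxcl2 (ENSMUSG00000058427, chromosome 5, 90903871 to 90905938 in GRCm38) had 426, 222 and 366 CPM in KPYYF libraries 4449, 4891 and 4938, and a lowest, median and highest level of 245, 384 and 2568 CPM in KPF libraries. The 3 KPYYF values fell within the KPF range, whose top was library 4601. Its log2 fold change was −1.16 (SE 0.80, adjusted p = 0.531 from edgeR's test), and −0.20 without 4601. Cxcl1 (ENSMUSG00000029380, chromosome 5, 90891241 to 90893115) stood at 255, 475 and 19.3 CPM in the KPYYF libraries and at 164, 243 and 511 CPM (lowest, median, highest) in KPF libraries. The low value of 4938, from 176 counts, was under every KPF library, while the other two KPYYF libraries lay among them, giving a log2 fold change of −0.31 (SE 0.73, adjusted p = 0.893). Cxcl5, another neutrophil attractant, ranged from 24.1 to 95.3 CPM in KPYYF and from 24.1 to 150 CPM in KPF libraries (log2 fold change −0.15). Cxcl3 reached at most 8.89 CPM, in 4601 (−1.68, and −0.96 without that library). None of the 4 tested members of this class passed the cutoff of the methods, and 1 more, Cxcl15, had 86 counts in all.

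Of the 2 tested ligands of Cxcr3, a receptor of activated T and NK cells, Cxcl10 was higher in KPYYF cells in 2 of 3 libraries. Cxcl10 (ENSMUSG00000034855, chromosome 5, 92346638 to 92348889), an interferon-induced chemokine, had 89.8, 60.0 and 5.04 CPM in libraries 4449, 4891 and 4938. The KPF libraries lay close together, with 9.53 CPM as the lowest, 14.7 as the median and 20.7 as the highest value. Libraries 4449 and 4891 were above all 6 of these and 4938 was below them all. The mean was 51.6 ± 43.0 CPM (SD, n = 3) in KPYYF and 14.6 ± 4.02 CPM (SD, n = 6) in KPF libraries. The log2 fold change was 1.82 (SE 0.60, adjusted p = 0.159 from edgeR's test), and the exact permutation test gave p = 0.238. Without 4938 it was 2.36 with an adjusted p of 0.0491 in edgeR's test, and over all alternatives the adjusted p ranged from 0.0491 to 0.746. It was 0.55 in limma-voom and 1.16 without 4449, both with an unadjusted p above 0.05. Cxcl9, also induced by interferon, had 37.3 CPM in 4449 but 1.42 and 0.658 CPM in 4891 and 4938, against 0.486 to 6.95 CPM in KPF libraries. Its log2 fold change of 1.89 turned to −1.75 without 4449.

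The other CXC chemokines and the CX3C chemokine held 3 of the 6 lower members past the cutoff of the methods, and all 6 tested members had negative log2 fold changes, with a median of −2.34, or −2.40 without 4601. Cxcl12 (ENSMUSG00000061353, chromosome 6, 117168535 to 117181367), the ligand of Cxcr4 and Ackr3, which retains leukocytes and stem cells in tissues, had 0.119, 4.37 and 0.767 CPM in libraries 4449, 4891 and 4938. In KPF libraries its lowest, median and highest levels were 6.34, 26.0 and 62.9 CPM. All KPYYF libraries were below all KPF libraries. The mean was 28.9 ± 20.2 CPM (SD, n = 6) in KPF and 1.75 ± 2.29 CPM (SD, n = 3) in KPYYF libraries. This gave a log2 fold change of −4.03 (SE 1.05, adjusted p = 0.0932 from edgeR's test, with 2.33e-04 to 0.25 over the alternatives). The exact permutation p was 0.0119, the smallest that this test can give. The test took every library as independent, including the KPF libraries that bear the same mouse number. Without 4601 the log2 fold change was −4.14, and in the libraries with at least 1000 Xist reads it was −3.75.

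Cxcl17 (ENSMUSG00000060188, chromosome 7, 25400053 to 25412886), a mucosal chemokine of epithelia, was close to the detection limit in the KPYYF libraries. They had 0.237, 0 and 0.877 CPM in 4449, 4891 and 4938, where a count of 0 in 4891 allows up to 0.328 CPM (3 counts). KPF libraries ranged from 1.94 CPM in 4504h over a median of 20.3 to 76.8 CPM in 4515, a wide spread that did not overlap the KPYYF values. The log2 fold change was −6.38 (SE 1.61, adjusted p = 0.0932 from edgeR's test, with 1.35e-06 to 0.401 over the alternatives), and the exact permutation p was 0.0238. It was −6.59 without 4601. Epithelial markers were also lower in the KPYYF libraries, as given above, and their part in this difference was not tested.

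Cx3cl1 (ENSMUSG00000031778, chromosome 8, 94772009 to 94782427), or fractalkine, a membrane-bound chemokine that attracts monocytes and NK cells through Cx3cr1, had 23.6, 10.4 and 10.4 CPM in libraries 4449, 4891 and 4938. Its KPF levels were 14.3 CPM at the lowest (4601), 38.3 at the median and 73.1 at the highest. Only 4449 overlapped the KPF range, above library 4601. The log2 fold change was −1.54 (SE 0.56, adjusted p = 0.189 from edgeR's test; exact permutation p = 0.0357), and −1.71 without 4601. Cxcl14, made by many epithelia, ranged from 0.119 to 9.86 CPM in KPYYF and 2.53 to 51.5 CPM in KPF libraries (log2 fold change −1.82). The B cell attractant Cxcl13 was at 0 to 3.50 and 0 to 28.8 CPM (−2.87), and the scavenger ligand Cxcl16 at 9.51 to 123 and 34.6 to 150 CPM (−0.59). None of these last 3 had an unadjusted p under 0.05.

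**Figure D2:**
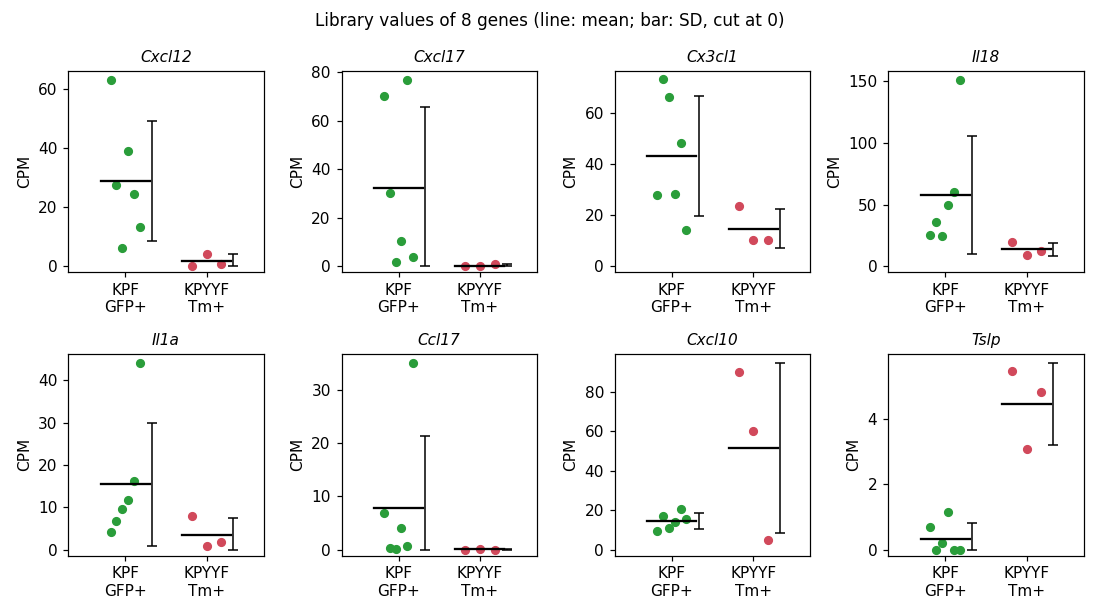
CPM of 8 cytokine genes in each of the 6 KPF GFP+ libraries (green) and the 3 KPYYF Tm+ libraries (red), with the mean as a line and the SD as a bar. The groups do not overlap for Cxcl12, Cxcl17, Il18 and Tslp, while 1 KPYYF library of Cxcl10 sits at 5.04 CPM below all KPF libraries.

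The promoters of Cxcl1 and Cxcl2, among the most abundant members, and of Cxcl10 and Cxcl12, which differed in opposite directions, are shown because they differ in known inflammatory elements. They were chosen with their levels and motifs known, and a link between motifs and differences was not tested. RefSeq's table on build GRCm38.p6 held a window of 250 bases before to 50 after the start for 29 of the 44 members. Both strands were searched for the NF-kB consensus, the AP-1 site TGANTCA, the TEAD site GGAATG (TEAD proteins bind DNA for Yap) and the core of the interferon-stimulated response element, GAAANNGAAA. The 250 bases before the start are printed, 5′ to 3′ on the gene's strand, with matches in capitals. They are chr5:90890995-90891244 (+ strand) for Cxcl1, chr5:90903649-90903898 (+) for Cxcl2, chr5:92348890-92349139 (− strand) for Cxcl10 and chr6:117168285-117168534 (+) for Cxcl12.
Cxcl1: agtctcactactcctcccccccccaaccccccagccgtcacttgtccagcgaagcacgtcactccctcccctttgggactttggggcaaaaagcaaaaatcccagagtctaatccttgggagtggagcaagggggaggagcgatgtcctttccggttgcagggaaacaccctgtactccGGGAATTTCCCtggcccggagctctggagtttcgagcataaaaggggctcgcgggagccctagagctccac
Cxcl2: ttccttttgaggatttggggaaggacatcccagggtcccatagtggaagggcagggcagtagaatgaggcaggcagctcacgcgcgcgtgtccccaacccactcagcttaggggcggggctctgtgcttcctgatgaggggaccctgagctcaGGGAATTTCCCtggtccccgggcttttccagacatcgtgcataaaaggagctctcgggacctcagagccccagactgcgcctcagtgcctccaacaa
Cxcl10: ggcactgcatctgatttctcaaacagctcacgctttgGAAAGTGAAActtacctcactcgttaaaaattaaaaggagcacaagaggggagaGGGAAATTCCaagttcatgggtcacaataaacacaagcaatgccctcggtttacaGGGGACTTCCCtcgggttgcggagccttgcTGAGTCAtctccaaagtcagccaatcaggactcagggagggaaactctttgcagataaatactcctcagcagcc
Cxcl12: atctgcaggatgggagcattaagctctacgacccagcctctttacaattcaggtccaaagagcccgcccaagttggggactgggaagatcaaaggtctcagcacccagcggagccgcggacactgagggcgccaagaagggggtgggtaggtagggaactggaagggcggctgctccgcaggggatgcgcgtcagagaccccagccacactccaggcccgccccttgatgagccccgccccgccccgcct
Cxcl1 and Cxcl2 carry the same 11-base element in capitals, which matches the NF-kB consensus in 2 overlapping frames and begins at position −71 in Cxcl1 and −97 in Cxcl2, counted back from the start. In Cxcl10, the capitals mark, in order, the response element core, an NF-kB match, a pair of overlapping NF-kB matches and an AP-1 site. The Cxcl12 window held none of the 4 motifs. Among all 29 members with a window, 10 held an NF-kB match (34.5%, against 9.55% of all genes in the table), 10 an AP-1 site (34.5%, against 8.97%), 5 a TEAD site (17.2%, against 16.6%) and 2 the response element core (6.90%, against 3.99%). The 5 members with a TEAD site were Ccl17, Cxcl13, Cxcl3, Il1rn and Il33. The 2 with the response element core were Cxcl10 and Cxcl14, with log2 fold changes of 1.82 and −1.82. A match is a description of the letters, and binding was not measured here.

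Inflammatory CC chemokines, which draw monocytes, macrophages, eosinophils and T cells through receptors such as Ccr1, Ccr2 and Ccr3, included no member past the cutoff of the methods in edgeR's test among 11 tested, while DESeq2 placed Ccl4, Ccl6 and Ccl24 past it. Of these, 10 lie on chromosome 11. Ccl6 (ENSMUSG00000018927, chromosome 11, 83587882 to 83593087), a myeloid chemokine of rodents, had 199, 107 and 113 CPM in libraries 4449, 4891 and 4938. KPF libraries had 122 CPM at the lowest, 270 at the median and 4320 CPM at the highest, in 4601. Libraries 4891 and 4938 were below all KPF libraries and 4449 was not. The log2 fold change was −2.80 (SE 1.32, adjusted p = 0.347 from edgeR's test), and −1.12 without 4601.

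Ccl9, Ccl3, Ccl4, Ccl24 and Ccl7 followed the same pattern, with 733, 151, 159, 118 and 116 CPM in 4601, whereas the other 5 KPF libraries reached no more than 76.8, 16.5, 24.1, 24.3 and 36.7 CPM. Ccl9, related to Ccl6, had 10.3 to 43.1 CPM in KPYYF libraries, and its log2 fold change of −2.79 was −0.75 without 4601. For Ccl3 and Ccl4, which draw macrophages and T cells, the values were −2.52 and −2.99, and −0.32 and −1.08 without 4601. For the eosinophil attractant Ccl24 it was −4.02, and −2.30 without 4601. The Ccr2 ligands Ccl2 and Ccl7, which draw monocytes, had log2 fold changes of −0.19 and −0.90, which turned to 0.37 and 0.27 without 4601. Ccl2 was at 22.8, 31.8 and 32.2 CPM in libraries 4449, 4891 and 4938, a narrower range than the 5.63 to 85.3 CPM of the KPF libraries. Ccl12, also a Ccr2 ligand, reached 10.6 CPM in 4601 and 4.27 CPM in 4449 (−0.53), and the eosinophil attractant Ccl11 at most 4.65 CPM (−2.96).

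Ccl8 and Ccl5 had positive log2 fold changes. Ccl8, a ligand of several CC receptors, was at 9.51 to 23.2 CPM in all 3 KPYYF libraries, and at 16.3 and 53.4 CPM in KPF libraries 4504s and 4601 but at most 1.12 CPM in the other 4 (log2 fold change 0.54, and 2.28 without 4601). The T cell attractant Ccl5 had 40.7 CPM, from 372 counts, in 4891, but 0.237 and 0 CPM in 4449 and 4938. Its log2 fold change of 2.63 turned to −4.08 without 4891, and was 3.46 without 4601.

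**Figure D3:**
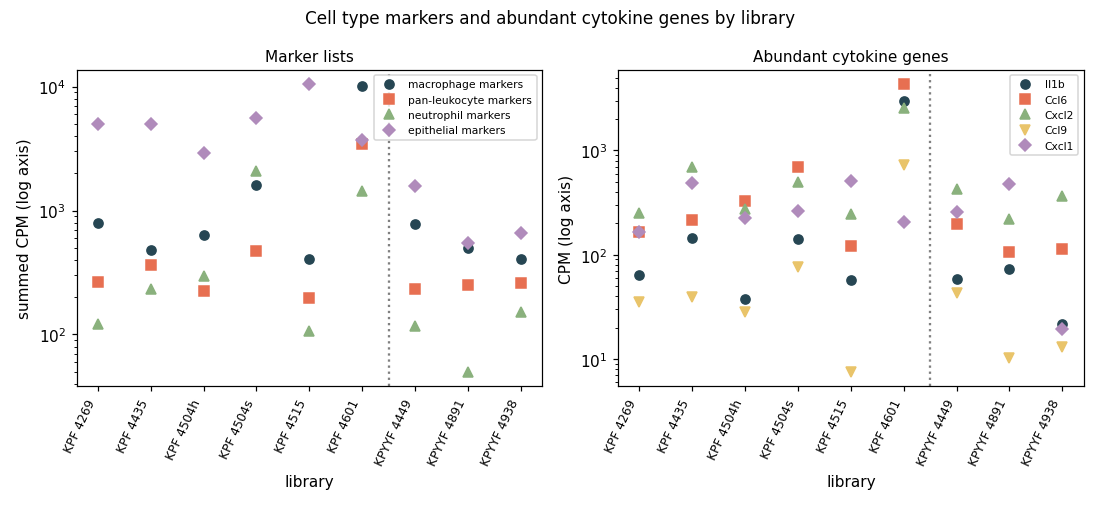
Summed CPM of the macrophage (10 genes), pan-leukocyte (7), neutrophil (7) and epithelial (7) markers (left) and CPM of 5 abundant cytokine genes (right) in each library, both on log axes, with the KPYYF libraries right of the dotted line. KPF 4601 has the highest macrophage and pan-leukocyte sums and the highest Ccl6, Il1b, Cxcl2 and Ccl9, but not the highest Cxcl1.

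Among the homeostatic and mucosal CC chemokines, 3 of the 4 tested members, Ccl22, Ccl17 and Ccl25, lie on chromosome 8. Ccl22 (94745590 to 94751699), Cx3cl1 and Ccl17 follow each other there. Ccl17 (ENSMUSG00000031780, 94810453 to 94812036), a Ccr4 ligand that draws regulatory and helper T cells and is made by dendritic cells and macrophages, had 0, 0.219 and 0 CPM in libraries 4449, 4891 and 4938. KPF libraries ranged from 0.204 CPM over a median of 2.38 to 35.0 CPM in 4601, so that 1 KPF library lay within the KPYYF range. Summed over libraries, there were 359 counts in KPF and 2 in KPYYF. Ccl17 thus passed the minimum of summed counts only through the KPF group, and its difference is not independent of that minimum. Scaled to library size, the ratio was 87.9 (95% interval 24.2 to 729, for counting error only). Without 4601, 119 KPF counts remained and the ratio was 33.3 (95% interval 9.03 to 279). The fitted log2 fold change was −6.49 (SE 2.18, adjusted p = 0.163 from edgeR's test, with 0.00439 to 0.434 over the alternatives), and −4.79 without 4601, where the unadjusted p was above 0.05. Its neighbor Ccl22, also a Ccr4 ligand, had 91 of its 116 counts in KPYYF library 4449 and 24 in KPF library 4601. Ccl25, which draws T cells to the gut through Ccr9, had 7.01, 19.7 and 14.1 CPM in the KPYYF and 2.96 to 11.6 CPM in the KPF libraries (log2 fold change 1.26, SE 0.70, adjusted p = 0.404 from edgeR's test). Ccl27a, a skin T cell chemokine, was at 0 to 5.47 and 0.0973 to 6.95 CPM (−0.42), and its reads may be split with near-identical copies because only unique alignments were counted.

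All 5 tested genes of the IL-1 family and its antagonist had negative log2 fold changes (median −2.07, and −0.78 without 4601). Il18 (ENSMUSG00000039217, chromosome 9, 50554827 to 50581840), a caspase-activated cytokine of epithelia and macrophages that stimulates interferon production, had 19.6, 9.51 and 12.2 CPM in libraries 4449, 4891 and 4938. KPF libraries had 24.6 CPM as the lowest, 43.0 as the median and 151 CPM as the highest value, again in 4601. No KPYYF library reached the KPF range. The means were 57.8 ± 47.6 CPM (SD, n = 6) and 13.8 ± 5.22 CPM (SD, n = 3) in KPF and KPYYF libraries. The log2 fold change was −2.07 (SE 0.62, adjusted p = 0.121 from edgeR's test, with 0.0111 to 0.288 over the alternatives; exact permutation p = 0.0238). Without 4601 it was −1.50.

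Il1a (ENSMUSG00000027399, chromosome 2, 129299610 to 129309972), the alarmin form of IL-1, stood at 7.96, 0.765 and 1.86 CPM in the KPYYF libraries and at 4.28, 10.7 and 44.0 CPM (lowest, median, highest) in KPF libraries. Library 4449 lay within the KPF range and the other two below it. Its log2 fold change was −2.12 (SE 0.95, adjusted p = 0.288 from edgeR's test; exact permutation p = 0.0476). Without 4601 it was −1.46 and the unadjusted p was above 0.05.

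Il1b (ENSMUSG00000027398, chromosome 2, 129364570 to 129371139), the secreted IL-1 of activated myeloid cells, had 58.4, 73.3 and 21.6 CPM in libraries 4449, 4891 and 4938. KPF libraries had 37.5 CPM at the lowest, 102 at the median and 2975 CPM at the highest, in 4601, where the next highest library had 144 CPM. Its log2 fold change of −3.48 (SE 1.81, adjusted p = 0.401 from edgeR's test) was −0.78 without 4601. Il1rn (ENSMUSG00000026981, chromosome 2, 24336853 to 24351494), which encodes the IL-1 receptor antagonist, had 333, 30.7 and 49.6 CPM in KPYYF libraries. In KPF libraries it had 46.2, 192 and 1795 CPM as lowest, median and highest levels. Its groups overlapped widely, with 4449 the second highest of all 9 libraries, and its log2 fold change of −1.65 was −0.24 without 4601. The nuclear alarmin Il33 had 63.8, 24.9 and 229 CPM in KPYYF and 42.7 to 211 CPM in KPF libraries (−0.07).

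In the IL-6 family, which signals through the shared receptor subunit gp130 (Il6st), none of the 3 tested members had an unadjusted p under 0.05. Il6 was at 17.2, 3.28 and 6.79 CPM in the KPYYF libraries and at 0 to 30.9 CPM in KPF libraries (log2 fold change −0.33). Lif, leukemia inhibitory factor, was at 16.6, 3.17 and 1.53 CPM against 4.81 to 19.6 CPM (−0.83). The fibroblast-active Il11 was at 1.07, 4.05 and 37.4 CPM against 1.46 to 18.1 CPM, and its log2 fold change of 0.54 turned to −1.92 without 4938. The highest KPYYF library was 4449 for Il6 and Lif and 4938 for Il11.

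None of the 3 tested growth factors of myeloid cells had an unadjusted p under 0.05. Csf1, the macrophage growth factor, had 33.2, 18.2 and 15.3 CPM in the KPYYF libraries around the 13.7 to 25.1 CPM of KPF libraries (log2 fold change 0.11, SE 0.42, adjusted p = 0.938 from edgeR's test). Il34, the second ligand of the Csf1 receptor, had 15.9, 0.328 and 39.0 CPM against 27.0 to 60.7 CPM (−1.06, SE 0.88), where the value of 4891 came from 3 counts. Csf3, the granulocyte growth factor, was at 3.28 to 6.53 CPM in KPYYF and 0.0973 to 6.35 CPM in KPF libraries (0.76, SE 1.19). Csf2, the granulocyte-macrophage growth factor, had 31 counts over 7 libraries and was not tested.

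Tslp was the 1 member whose 3 KPYYF libraries all exceeded the 6 KPF libraries. Tslp (ENSMUSG00000024379, chromosome 18), an epithelial cytokine that activates dendritic cells, had 5.46, 3.06 and 4.82 CPM in libraries 4449, 4891 and 4938, from 46, 28 and 44 counts. In KPF libraries it had 0 CPM as the lowest, 0.102 as the median and 1.14 CPM as the highest level, with 3 libraries at 0. No KPF library held more than 10 counts, so that Tslp passed the minimum of summed counts only through the KPYYF group. Its difference is thus not independent of that minimum. The mean was 4.45 ± 1.24 CPM (SD, n = 3) in KPYYF and 0.337 ± 0.473 CPM (SD, n = 6) in KPF libraries. The log2 fold change was 3.66 (SE 1.60, adjusted p = 0.274 from edgeR's test, with 0.133 to 0.527 over the alternatives; exact permutation p = 0.0119). The unadjusted p was above 0.05 without 4435, 4504h, 4515 or 4601 and in the libraries with Xist reads, and without 4449 or 4938 too few counts were left for a test. Il15, which sustains NK cells, was at most 1.09 CPM in KPYYF and 3.18 CPM in KPF libraries (−2.16, SE 1.86).

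The remaining tested members were low or variable. Tnf had 10.2, 7.87 and 8.11 CPM in the KPYYF libraries, a narrow range inside the 0.681 to 62.1 CPM of KPF libraries (log2 fold change −1.68, SE 0.99, adjusted p = 0.444 from edgeR's test, and −1.27 without 4601). Il16, a chemoattractant of CD4+ cells, had 36.1 CPM in 4601 and at most 5.35 CPM elsewhere (−2.23, and −0.37 without 4601). The anti-inflammatory Il10 was at 6.77 and 5.70 CPM in KPYYF libraries 4449 and 4938 and at 0 in 4891, and at most 1.33 CPM in KPF libraries other than 4601, which had 8.60 CPM (1.15, and 2.94 without 4601). Il23a was at 8.55 CPM in 4449 and 0 in the other two KPYYF libraries (−0.31, and 0.56 without 4601). The 15 members without a count were Il20, Il22, Il12a, Il25, Il31, Il3, Il5, Il21, Il4, Il9, Ccl19, Ccl21a, Ccl21b, Ccl26 and Ccl27b. For each, a count of 0 allows up to 0.292 to 0.437 CPM, depending on the library. The deposited counts exclude reads that align to several places, so that Ccl19, Ccl21 and Ccl27 copies may be missed.

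**Figure D4:**
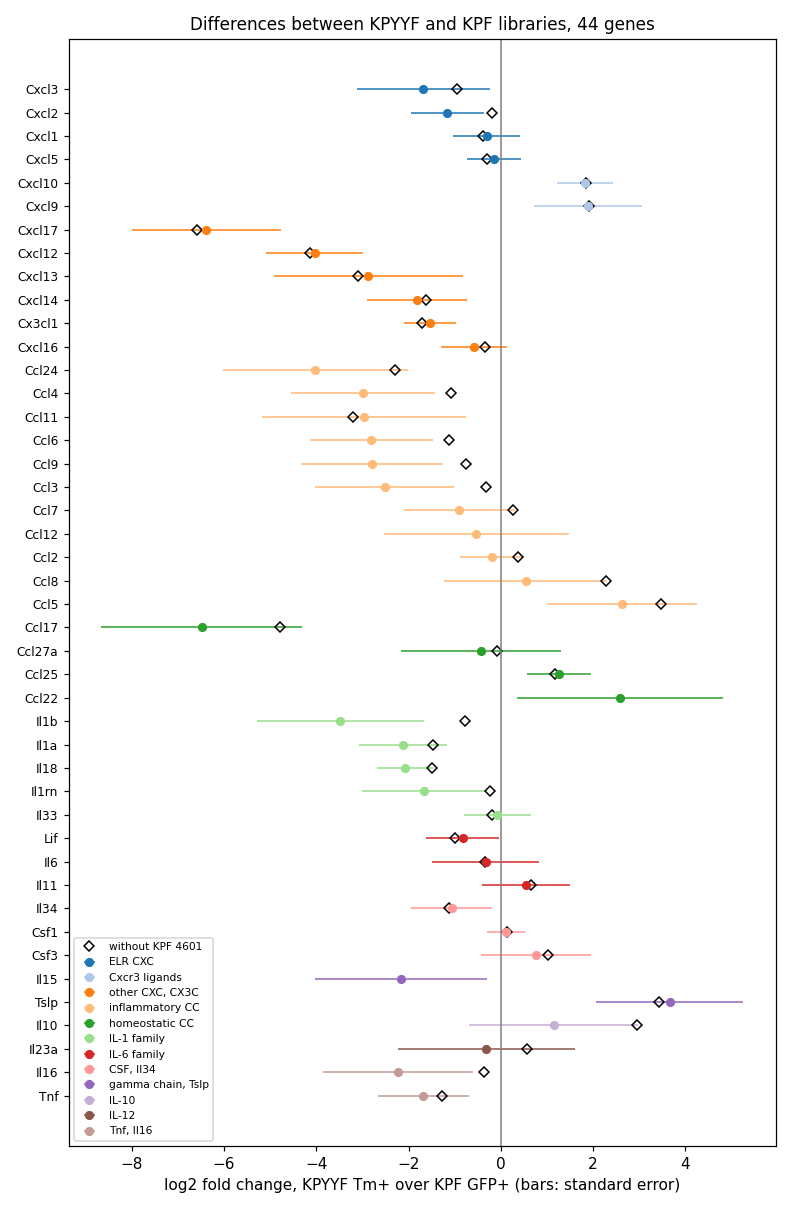
Log2 fold change of each of the 44 cytokine genes, KPYYF Tm+ over KPF GFP+, with its standard error (edgeR, filled circles colored by role) and the value without KPF 4601 (diamonds). The 5 IL-1 family genes and 9 of the 11 inflammatory CC genes lie left of 0, and Il1b moves from −3.48 to −0.78 without 4601, while Cxcl12 and Cxcl17 stay at −4.14 and −6.59.

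The KPYYF libraries differed from each other in which cytokine genes they held. Library 4449 was the highest of the 3 for 24 members, 4891 for 10 and 4938 for 10, and the shares of all genes among the 3 are not given. Over all 9 libraries, 4449 held the highest value for 13.6% of members, against 16.0% of all genes. For 4891 and 4938 these shares were 4.55% and 4.55% of members, against 12.0% and 10.4% of all genes. Library 4449 led in Cxcl9, Cxcl10, Il1rn, Ccl22 and Cxcl16 (123 CPM, against 9.51 and 37.3 CPM). Library 4891 led in Ccl5 and Cxcl1, and 4938 in Il33, Il11 and Il34. Of the 44 members, 34, 35 and 37 had more than 3 counts in 4449, 4891 and 4938, against 32 to 43 in KPF libraries.

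The receptors were examined for the ligands described above. Of 23 chemokine receptor genes, 10 were tested, with a median log2 fold change of −2.91, or −0.54 without 4601. At an unadjusted p under 0.05 and more than 2-fold, 1 was higher and 2 were lower (against 4.2% and 9.2% of all genes), and none had an adjusted p under 0.05 in edgeR's test. Without 4601, 1 of 9 was higher and 1 lower, against 617 higher and 1165 lower of all 13793 genes. The higher one was Ackr3, a scavenging receptor of Cxcl12, with 103, 38.3 and 39.2 CPM in libraries 4449, 4891 and 4938, all above the 10.7 to 37.7 CPM of KPF libraries (log2 fold change 1.23, SE 0.46, adjusted p = 0.2 from edgeR's test). The signaling receptor of Cxcl12, Cxcr4, had 4.70 to 10.5 CPM in KPYYF and 1.74 to 211 CPM in KPF libraries (−2.57, and −0.25 without 4601). The atypical receptor Ackr4 had no count in any KPYYF library and in 2 of the 6 KPF libraries (4269 and 4435), so that the groups overlapped. All 165 counts of Ackr4 were in KPF libraries, so that it was tested only through that group. Its highest values were 7.97 CPM in 4504s and 6.95 CPM in 4504h, which bear the same mouse number. Its mean in KPF libraries was 3.03 CPM. With each KPYYF library set at 3 counts, the KPYYF level was at least 8.98-fold below that mean. This bound covers counting error only, not the spread between KPF libraries. Ccrl2, a chemerin-binding receptor, had 4.05 to 6.69 CPM against 4.18 to 184 CPM (−2.91, and −1.20 without 4601, where the unadjusted p was 0.131). Leukocyte receptors of the other described ligands were highest in 4601, with Cx3cr1 at 123 CPM, Ccr1 at 69.4 and Cxcr2 at 24.2, and at most 5.26 CPM for any of these in KPYYF libraries. Cxcr3 had 16 counts in all and Ccr4 none.

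Of 37 cytokine receptor genes, 30 were tested, with a median log2 fold change of −0.29, and 1 was higher and 6 were lower at an unadjusted p under 0.05 and more than 2-fold in edgeR's test. Without 4601 the median was −0.029 over 28 genes, and 3 were higher and 3 lower, against 617 higher and 1165 lower of all 13793 genes. The IL-1 receptors divided. Il1r2, a decoy receptor that binds IL-1 without signaling, had 0.237, 7.54 and 7.45 CPM in libraries 4449, 4891 and 4938, below the 14.1 to 424 CPM of all KPF libraries (log2 fold change −4.25, SE 1.57, and −2.60 without 4601). Il1rap, the accessory chain needed for IL-1 and Il33 signaling, had 16.1, 14.4 and 36.3 CPM, above the 0.195 to 11.4 CPM of all KPF libraries (2.21, SE 0.91). Their adjusted p in edgeR's test was 0.224 and 0.246. The signaling receptor Il1r1 itself was at 1.19 to 30.9 and 3.94 to 39.6 CPM (0.14), and the Il18 receptor chains Il18r1 and Il18rap had log2 fold changes of 0.44 and −0.26. Il10rb, a shared chain of IL-10 type receptors, was at 9.08 to 24.8 CPM below 37.4 to 67.9 CPM (−1.43, SE 0.41). The Tnf receptor chain Tnfrsf1b was at 1.64 to 6.78 CPM below 7.87 to 41.3 CPM (−2.06, SE 0.73, and −1.57 without 4601, with an unadjusted p of 0.0537). Il7r, Csf2rb and Lifr were highest in 4601. Il7r had 41.5 CPM there, at most 2.10 CPM in the other KPF and 0.119 CPM in the KPYYF libraries (log2 fold change −6.44), with too few counts for a value without 4601. Csf2rb, a shared chain of the Csf2 receptor, had 663 CPM in 4601 and at most 73.6 CPM in the other KPF libraries (−3.66, and −1.62 without 4601). Lifr had a log2 fold change of −1.24, and −1.02 without 4601 with an unadjusted p of 0.0863. The Tslp receptor chain Crlf2 had 14.2 to 40.1 CPM in KPYYF and 17.1 to 154 CPM in KPF libraries (−1.42, SE 0.67, adjusted p = 0.325 from edgeR's test).

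Few genes of the signaling chains stood out. Among 19 NF-kB pathway genes, all tested, 0 were higher and 3 were lower at the cutoff of the methods (median log2 fold change −0.25), and none had an adjusted p under 0.05 in edgeR's test. These 3 were Bcl3, a nuclear IkB protein (17.3 to 24.0 CPM in KPYYF, 28.4 to 57.1 CPM in KPF libraries, −1.07, and −0.95 without 4601), the kinase Irak4 of the IL-1 receptor complex (10.3 to 12.7 and 15.5 to 61.2 CPM, −1.59) and Ikbkg, the regulatory subunit of the IkB kinase (6.45 to 23.2 and 22.6 to 58.2 CPM, −1.57). Of 16 JAK-STAT and feedback genes, Cebpd was higher (log2 fold change 1.16, with 263 CPM in 4891, and an unadjusted p of 0.0571 without 4601) and Socs2, a feedback inhibitor, lower (18.6 to 53.4 and 60.5 to 154 CPM, −1.38), with a median of −0.26. Of 9 genes for proteins that control the decay of cytokine mRNA, none passed that cutoff (median −0.24). The shares of lower genes, 20% of chemokine receptors, 20% of cytokine receptors, 15.8% of NF-kB genes and 6.25% of JAK-STAT genes, stand beside 9.2% of all genes tested.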

How the data were processed

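RNA came from PDAC cells that had been sorted for GFP or Tm, and 3′ end libraries followed the Lexogen QuantSeq forward protocol. The authors deposited raw counts per Ensembl gene, 1 table per library. The submitters' processing notes name STAR, HTSeq and mm10, while versions, annotation release and strand setting are not given in the sources used here. The methods instead describe BeadChip hybridization and DESeq2. Genes took 37.3 to 42.0% of a library's reads, and 43.8 to 53.4% had no unique alignment, which leaves near-identical gene copies uncounted. Counts of 3′ ends do not scale with transcript length. Differences were tested between libraries only, and rankings or sums of genes by CPM are descriptions.

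Symbols were taken from GENCODE M21 (GRCm38), which matched 47224 of 47643 genes. All 14105 genes with 100 or more counts in total, the filter of the methods, entered the quasi-likelihood test of edgeR 4.0.16 in R 4.3.3 (TMM, robust, no covariates), and p-values were adjusted over all of them after Benjamini and Hochberg. TMM factors were 0.833 to 1.08 and the common biological coefficient of variation was 0.825. For single genes, log2 CPM (prior count 2) was also compared by a permutation test that is exact and two-sided. It covered 84 assignments of the libraries, with a smallest possible p of 0.0119. This test and the SDs took all libraries as independent, although some KPF libraries bear the same mouse number. Neither was repeated with those libraries summed. Limits for a count of 0 allow 3 counts, and they and the intervals cover counting error only. P-values measure the spread between these libraries. The minimum of 100 counts is summed over both groups, so that a gene nearly absent from 1 group passed through the other alone. Every tested member is named. Library values are given for members past an unadjusted p under 0.05 and 2-fold, with groups that do not overlap, or among the 5 highest mean CPM, and list genes are named by the same cutoff or as their receptors. An allele that both groups share and a receptor gene are not reported here. The members and lists were chosen with earlier results of these data known.

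The alternatives were DESeq2 1.42.0, limma-voom 3.58.1 with quality weights, RLE and upper quartile normalization, no filter, filterByExpr, 4504h and 4504s summed, the libraries with at least 1000 Xist reads, and each library left out. All 3 tools were also run on simulated data for KPYYF against KPF with 13540 genes. Of changes by 4-fold and 16-fold, edgeR found 13.3% and 67.4%, and 7.23% of its calls were false. The same shares were 27.6%, 78.9% and 43.0% for DESeq2 and 12.2%, 55.8% and 7.14% for limma-voom. Figures were drawn with matplotlib 3.10.9.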

Additional observations from a re-analysis of the deposited data

Results flagged for a closer look

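Each of the 44 tested cytokine genes was examined for 1 KPF library far from the other 5 on the log2 CPM scale, by Dixon's test, which chance passes in about 1 of 20 groups. The test pointed to 3 values. Il1b was at 2975 CPM in KPF library 4601, far above the others. Ccl22 was at 3.50 CPM in the same library, while the other KPF libraries had at most 1 count. Il15 had no count (0 CPM) in KPF library 4269, while the other 5 had 1.23 to 3.18 CPM.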

How the results depend on the processing

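The count of members with an adjusted p under 0.05 was 0 in both directions with edgeR and stayed 0 with RLE or upper quartile normalization, no filter, filterByExpr, limma-voom, 4504h and 4504s summed and the libraries with Xist reads. DESeq2 called 4 lower members, and with each library left out edgeR called 0 to 1 higher (Cxcl10 without KPYYF library 4938) and 0 lower. At the cutoff of the methods, 2 members were higher (1 in the libraries with Xist reads, and 1 to 3 with each library left out, with 1 without KPF library 4435, 4504h, 4515 or 4601 or KPYYF library 4449 or 4938) and 6 lower (9 with DESeq2, and 4 to 9 with each library left out, with 4 without KPF library 4601 and 9 without KPF library 4269 or KPYYF library 4449). Groups without overlap numbered 4, against 10 in the libraries with Xist reads, where fewer libraries are compared. They numbered 4 to 8 with each library left out, with 7 without KPF library 4269 or KPYYF library 4938 and 8 without 4449. For settings with fewer libraries, no share of all genes is given here beside these counts or those at the cutoff. They describe the settings and are not a result about the members. The median log2 fold change of the members ranged from −1.78 to −0.35 with each library left out.

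Of 728 member values under 17 alternatives, 34 turned their sign, in 14 members without an unadjusted p under 0.05, and the cause was not tested. In limma-voom, Ccl2 was at 0.16, Ccl22 at −0.14, Ccl5 at −0.35, Csf1 at −0.15 and Cxcl9 at −0.87. In the libraries with Xist reads, Ccl2 was at 0.050, Csf1 at −0.041, Cxcl5 at 0.48, Il23a at 0.58 and Il6 at 0.031. With 4504h and 4504s summed, Il33 was at 0.088. With each library left out, the log2 fold change ranged from −3.65 to 0.021 for Ccl12, from −0.41 to 0.37 for Ccl2, from −2.28 to 0.16 for Ccl27a, from −4.08 to 3.46 for Ccl5, from −1.23 to 0.27 for Ccl7, from −0.30 to 0.32 for Csf1, from −1.18 to 0.24 for Cxcl1, from −0.73 to 0.33 for Cxcl5, from −1.75 to 2.45 for Cxcl9, from −1.92 to 1.09 for Il11, from −8.01 to 0.56 for Il23a, from −1.33 to 0.40 for Il33 and from −1.18 to 0.28 for Il6. Ccl11, Ccl12, Ccl17, Ccl22, Cxcl3, Il15 and Tslp had too few counts for a value under some alternatives, Tslp without KPYYF library 4449 or 4938. No paired analysis was possible because the labels give every library a number of its own, and the replicate numbers used here only follow the order of the libraries.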
